A study of Mus musculus with 14 samples.

Results

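The 10 genes described here encode proteins that build the cytoskeleton and growth cone of immature neurons or bind their RNA, and they were taken by name, from 43346 genes in the count table. They are the tubulins Tubb3 and Tubb2b, the stathmins Stmn1 and Stmn2, the collapsin response mediator proteins Dpysl3 and Dpysl5, the membrane proteins Marcksl1 and Gap43, and the RNA-binding proteins Elavl3 and Elavl4. Each was found by its mouse Ensembl identifier, and all 10 passed the filter on low counts. The study measured polyadenylated RNA by SMART-Seq v4 in live GFP-positive cells, 800 to 1000 per sample, which were sorted from the hippocampus of wild-type C57BL/6 mice and labelled adult-born granule cells, the neurons that the dentate gyrus adds in adult life. The samples, at day 14, formed 4 groups that asked what seizures do to these cells and what silencing the cells changes. In the DREADD Pilo group (3 libraries, "Seizures and Silenced") the cells carried a DREADD, a designer receptor, named hM4Di with GFP in these library names, and the mice had pilocarpine. In the CAG-GFP Pilo group (4 libraries, "Seizures") the cells carried GFP from the CAG promoter, which is active in most cell types, and the mice had pilocarpine. The DREADD Sham (4 libraries) and CAG-GFP Sham (3 libraries) groups carried the same constructs without seizures. All 4 groups, controls included, received CNO, the drug that activates such receptors. Pilocarpine (300 mg/kg) followed scopolamine methyl nitrate (2 mg/kg) and terbutaline (2 mg/kg), and status epilepticus was ended after 3 h with diazepam (10 mg/kg). The sources used here do not give what sham mice received in place of pilocarpine, the dose of CNO, the age of the mice or the vector that brought the constructs. Separate animals are not stated for the libraries of a group, so the p-values reflect variation between libraries that may be technical.

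Total counts ran from 10613291 to 38614639 per library. Library names were written in 2 styles, here called library sets: set 1 was made of every CAG-GFP Sham library, DREADD Sham 1 and 2, and CAG-GFP Pilo 3 and 4, and set 2 held the other 7, with all DREADD Pilo libraries among them. Pseudogenes took 0.117 to 0.200% of the counts in set 1 and 4.33 to 8.12% in set 2. The library labelled DREADD Pilo 3 stood apart, with 154195.4 CPM (counts scaled to library total and TMM factor) summed over 6 markers of ependyma and choroid plexus. The 10 genes together had 18.7 CPM in it, against 550.1 to 2343 CPM in the other 13 libraries. CAG-GFP Pilo 4 also stood apart. It had the highest total count but only 9372 genes detected, against 14512 to 20863 in the other 13 libraries. Its values of 0 and its extreme values below carry that limit, which counting error does not cover. Markers went against a pure population of adult-born granule cells in every group. The sum of 10 oligodendrocyte markers was 19303, 43757 and 403 CPM in DREADD Pilo, 35728, 37872, 1351 and 4368 CPM in CAG-GFP Pilo, 19029, 21091, 40847 and 29555 CPM in DREADD Sham and 596, 599.7 and 704 CPM in CAG-GFP Sham. The sum of 10 astrocyte markers was 1193, 3292 and 1299 CPM in DREADD Pilo, 6031, 4745, 725 and 661 CPM in CAG-GFP Pilo, 1821, 2672, 4403 and 2452 CPM in DREADD Sham and 26892, 26974 and 28301 CPM in CAG-GFP Sham. Dcx, the microtubule protein that defines neuroblasts, was at 0 in DREADD Pilo 3, CAG-GFP Pilo 4 and CAG-GFP Sham 1. In such bulk samples, fewer cells of a type and less RNA per cell cannot be told apart.

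A young neuron extends its axon and dendrites by growing and dismantling microtubules and by steering a growth cone, the motile tip of each process, which needs proteins at the junction of membrane and actin. Tubulins form the microtubule, stathmins sequester tubulin and destabilise the polymer, and collapsin response mediator proteins pass guidance signals to the cytoskeleton. Marcksl1 and Gap43 sit under the membrane of the growing tip, and the neuronal Elavl proteins bind AU-rich transcripts, Gap43 mRNA among them, and stabilise them or change their splicing. In the dentate gyrus several of these genes serve as markers of newborn granule cells. Some of their transcripts are also known outside neurons, such as those of Stmn1 and Marcksl1 in oligodendrocyte precursors.

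How far a count can be credited to 1 gene depends on its closest relative. Of the pairs aligned, Tubb2b and Tubb2a were the closest, with 96.5% of 1338 coding bases identical and 1 identical run of 551 bases, so the counts of Tubb2b are uncertain as those of a single gene. Their last 75 coding bases, shown because even the end of the coding sequence hardly separates them, read as follows, with the 3 bases that differ in capitals (GENCODE M21 transcripts, GRCm38).
Tubb2b: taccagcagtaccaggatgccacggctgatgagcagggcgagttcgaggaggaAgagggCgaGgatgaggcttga
Tubb2a: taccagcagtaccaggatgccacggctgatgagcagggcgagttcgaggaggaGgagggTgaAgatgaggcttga
The other pairs were further apart: coding identity was 84.5% for Tubb3 and Tubb2b, 73.6% for Stmn1 and Stmn2, 64.5% for Dpysl3 and Dpysl5, 78.1% for Elavl3 and Elavl4, and 68.9% for Marcksl1 and Marcks. Of the exon bases of Stmn1, 66 (3.43%) overlap Gm23634 on the same strand. Elavl3 shares 256 exon bases (3.72%) with Gm49318, also on the same strand.

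Promoters of 3 members are shown, chosen after their values were seen: Marcksl1 and Elavl3 had the smallest p of the 10 in both comparisons with CAG-GFP Sham, and Dpysl5 was the lowest member, per length, in 3 of 4 groups. The windows end just before the gene start (RefSeq, GRCm38.p6) and were searched on both strands for the E-box CANNTG, the letters that neurogenic basic helix-loop-helix factors such as Neurod1 bind, with matches in capitals.
Marcksl1 (chr4:129513331-129513580, plus strand): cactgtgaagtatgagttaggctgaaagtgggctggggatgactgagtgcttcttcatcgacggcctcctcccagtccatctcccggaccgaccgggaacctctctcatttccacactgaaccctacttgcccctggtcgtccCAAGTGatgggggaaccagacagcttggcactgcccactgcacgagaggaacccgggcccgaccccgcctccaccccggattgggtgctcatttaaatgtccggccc
Elavl3 (chr9:22052147-22052273, minus strand): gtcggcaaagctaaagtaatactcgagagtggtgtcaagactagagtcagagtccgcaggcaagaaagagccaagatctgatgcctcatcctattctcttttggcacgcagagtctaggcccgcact
Dpysl5 (chr5:30711314-30711563, plus strand): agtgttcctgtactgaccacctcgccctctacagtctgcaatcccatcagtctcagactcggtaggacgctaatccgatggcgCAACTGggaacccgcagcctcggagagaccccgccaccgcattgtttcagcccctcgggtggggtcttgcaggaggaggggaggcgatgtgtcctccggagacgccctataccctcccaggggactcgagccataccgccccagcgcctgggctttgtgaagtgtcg
Marcksl1 and Dpysl5 held 1 match each in 250 bases. The RefSeq window of Elavl3 starts from a transcript that begins inside the gene, so the 127 bases shown are only its part before the outermost start of the gene; that part held 0 matches, and the whole window of 250 bases held 2. Of all 32851 windows of 250 bases before a gene start, 66.2% held at least 1 match, so a match is a description of these letters and not a site.

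Tubb3 encodes class III beta-tubulin, the tubulin used to tell neurons from glia (chromosome 8, 123411424 to 123422015, plus strand, GRCm38). Tubb3 had 112, 52.0 and 0 CPM in the DREADD Pilo libraries, 56.7, 117, 118 and 35.7 CPM in the CAG-GFP Pilo libraries, 81.1, 68.1, 292 and 222 CPM in the DREADD Sham libraries and 30.9, 11.4 and 22.7 CPM in the CAG-GFP Sham libraries. The 0 in DREADD Pilo 3 allows up to 0.334 CPM, the level of 3 counts, as far as counting error goes. All 4 CAG-GFP Pilo libraries and all 4 DREADD Sham libraries were above all 3 CAG-GFP Sham libraries, and the DREADD Pilo libraries spread across both Sham groups. The log2 fold change was 1.92 ± 1.29 (SE) for CAG-GFP Pilo against CAG-GFP Sham and 2.94 ± 1.35 for DREADD Sham against CAG-GFP Sham, and neither passed edgeR's quasi-likelihood test (Benjamini-Hochberg adjusted p = 0.471 and 0.266).

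Tubb2b encodes a beta-tubulin isotype of the developing brain (chromosome 13, 34126748 to 34130466, minus strand). Tubb2b had 92.1, 47.2 and 0.780 CPM in the DREADD Pilo libraries, 54.9, 62.5, 63.9 and 183 CPM in the CAG-GFP Pilo libraries, 61.1, 125, 127 and 149 CPM in the DREADD Sham libraries and 74.3, 40.5 and 27.8 CPM in the CAG-GFP Sham libraries. CAG-GFP Pilo 4 was the highest library, far above the other 3 of its group, and every pair of groups overlapped. Its log2 fold change was 0.94 ± 0.96 for CAG-GFP Pilo against CAG-GFP Sham and 1.28 ± 0.98 for DREADD Sham against CAG-GFP Sham. Added to its near-identical relative, Tubb2a plus Tubb2b had 339.6, 168 and 16.4 CPM in DREADD Pilo, 456, 551, 828 and 454 CPM in CAG-GFP Pilo, 410.0, 499.7, 495.5 and 705 CPM in DREADD Sham, and 480.4, 529 and 487 CPM in CAG-GFP Sham. In that sum all DREADD Pilo libraries were below all libraries of the other 3 groups. As counted, Tubb2a made up most of the sum in every library and was separated in the same way alone. Tubb2a had 247.6, 120.5 and 15.61 CPM in DREADD Pilo, and its lowest library elsewhere was CAG-GFP Pilo 4 with 271.2 CPM. The separation is thus no result for Tubb2b alone, and the share of all genes separated in this way was not tested.

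Stmn1 encodes stathmin, a phosphoprotein that binds tubulin dimers and is abundant in dividing and immature cells (chromosome 4, 134468320 to 134473843, plus strand). Stmn1 had 260.4, 265 and 10.3 CPM in the DREADD Pilo libraries, 262, 287, 1226 and 505 CPM in the CAG-GFP Pilo libraries, 655, 739, 744 and 973 CPM in the DREADD Sham libraries and 375, 293 and 338 CPM in the CAG-GFP Sham libraries. The 4 DREADD Sham libraries were all above the DREADD Pilo and the CAG-GFP Sham libraries, and CAG-GFP Pilo held both the highest library of all and libraries below CAG-GFP Sham. For DREADD Pilo against DREADD Sham its log2 fold change was -2.12 ± 0.85 (edgeR adjusted p = 0.954), and -1.59 ± 0.63 without DREADD Pilo 3. Stmn1 had the highest level per length of the 10 genes in all 4 groups, with a mean of 93.0 ± 75.9 CPM per kb of exon in DREADD Pilo, 297 ± 235 CPM per kb in CAG-GFP Pilo, 405 ± 70.9 CPM per kb in DREADD Sham and 174 ± 21.5 CPM per kb in CAG-GFP Sham (SD, n = 3, 4, 4 and 3). In DREADD Pilo and CAG-GFP Pilo the next gene lay within those SDs.

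Stmn2 encodes SCG10, the membrane-anchored stathmin of growth cones (chromosome 3, 8509360 to 8561606, plus strand). Stmn2 had 101, 24.6 and 0.446 CPM in the DREADD Pilo libraries, 54.3, 143, 385 and 55.1 CPM in the CAG-GFP Pilo libraries, 140.1, 139, 123 and 205 CPM in the DREADD Sham libraries and 139.7, 178 and 210.4 CPM in the CAG-GFP Sham libraries. All DREADD Pilo libraries were below all DREADD Sham libraries and all CAG-GFP Sham libraries, while the DREADD Sham and CAG-GFP Sham libraries overlapped. CAG-GFP Pilo 3 was the highest library, and CAG-GFP Pilo 1 and 4 were below both Sham groups. Its log2 fold change was -1.85 ± 1.10 for DREADD Pilo against DREADD Sham (edgeR adjusted p = 1), and -1.30 ± 0.84 without DREADD Pilo 3. Against CAG-GFP Sham it was -0.14 ± 1.03 in CAG-GFP Pilo and -0.21 ± 1.03 in DREADD Sham, both near 0 beside the SE, and scaling by library totals turned both to 0.57.

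Dpysl3 encodes CRMP4, which binds actin and tubulin in growing processes (chromosome 18, 43320984 to 43438286, minus strand). Dpysl3 had 58.6, 22.3 and 0.446 CPM in the DREADD Pilo libraries, 13.6, 78.8, 30.8 and 168 CPM in the CAG-GFP Pilo libraries, 104, 97.1, 234 and 109 CPM in the DREADD Sham libraries and 19.0, 22.2 and 18.0 CPM in the CAG-GFP Sham libraries. The 4 DREADD Sham libraries were above every library of DREADD Pilo and CAG-GFP Sham, and the 3 CAG-GFP Sham libraries lay close together. CAG-GFP Pilo ran from below to far above them. The log2 fold change was 2.79 ± 1.14 for DREADD Sham against CAG-GFP Sham, 1.88 ± 1.09 for CAG-GFP Pilo against CAG-GFP Sham and -2.33 ± 1.12 for DREADD Pilo against DREADD Sham (edgeR adjusted p = 0.240, 0.398 and 0.956).

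Dpysl5 encodes CRMP5, a family member of the developing nervous system known in mice as a label of newborn dentate neurons (chromosome 5, 30711564 to 30799375, plus strand). Dpysl5 had 5.72, 0 and 0.669 CPM in the DREADD Pilo libraries, 0, 0, 0.617 and 0 CPM in the CAG-GFP Pilo libraries, 9.81, 7.79, 7.36 and 23.6 CPM in the DREADD Sham libraries and 0.149, 1.98 and 10.6 CPM in the CAG-GFP Sham libraries. It was at 0 in 3 of 4 CAG-GFP Pilo libraries and in DREADD Pilo 2, where 3 counts would be 0.282, 0.276, 0.0561 and 0.180 CPM. All 4 DREADD Sham libraries were above all Pilo libraries, whereas CAG-GFP Sham overlapped every other group and had 1 library at only 3 counts. Its log2 fold change was -4.66 ± 2.32 for CAG-GFP Pilo against CAG-GFP Sham, the only negative one beside Stmn2, with an edgeR adjusted p of 0.340. At these counts the fitted fold depends on the prior count. Per length it was the lowest of the 10 genes in 3 groups, with 1.65 ± 1.05 CPM per kb in DREADD Sham, where it was highest.

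Marcksl1 encodes a MARCKS-like protein that links membrane and actin under the control of protein kinase C (chromosome 4, 129513581 to 129515985, plus strand). Marcksl1 had 311, 52.5 and 4.46 CPM in the DREADD Pilo libraries, 204, 196, 52.9 and 168 CPM in the CAG-GFP Pilo libraries, 75.9, 358, 269.7 and 404 CPM in the DREADD Sham libraries and 5.97, 19.6 and 4.51 CPM in the CAG-GFP Sham libraries. All CAG-GFP Pilo and all DREADD Sham libraries were above all CAG-GFP Sham libraries, and DREADD Pilo reached from the lowest level of all to among the highest. Marcksl1 averaged 155 ± 69.9 CPM in CAG-GFP Pilo and 277 ± 145 CPM in DREADD Sham (SD, n = 4 each), against 10.0 ± 8.30 CPM in CAG-GFP Sham (SD, n = 3). The log2 fold change was 3.95 ± 1.17 for CAG-GFP Pilo and 4.79 ± 1.22 for DREADD Sham, both against CAG-GFP Sham, and edgeR's adjusted p was 0.234 and 0.122. Without DREADD Pilo 3, which enters neither comparison but shares the estimate of the spread, the log2 fold changes were 3.91 ± 0.89 (adjusted p = 0.0661) and 4.75 ± 0.93 (adjusted p = 0.0229). The sums of 10 oligodendrocyte markers and of 6 neuroblast markers were also higher in every CAG-GFP Pilo and DREADD Sham library than in CAG-GFP Sham. Between libraries they need not go together: DREADD Pilo 2 had the highest oligodendrocyte sum, 43757 CPM, and 52.5 CPM of Marcksl1. The part of either cell type in the result was not tested.

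Gap43 encodes the growth-associated protein of axonal growth cones (chromosome 16, 42248442 to 42340651, minus strand). Gap43 had 208, 19.9 and 0.112 CPM in the DREADD Pilo libraries, 128, 214, 306 and 473 CPM in the CAG-GFP Pilo libraries, 56.1, 111, 233 and 194 CPM in the DREADD Sham libraries and 69.6, 103 and 90.1 CPM in the CAG-GFP Sham libraries. All CAG-GFP Pilo libraries were above all CAG-GFP Sham libraries, although CAG-GFP Pilo 1 exceeded the highest of them by little beside the spread of its own group. DREADD Sham overlapped every other group, and DREADD Pilo held both high and very low libraries. For CAG-GFP Pilo against CAG-GFP Sham its log2 fold change was 1.68 ± 1.24 (edgeR adjusted p = 0.526). Within library set 1 alone, with 2 CAG-GFP Pilo and 3 CAG-GFP Sham libraries, it was 2.14 ± 0.42 (adjusted p = 0.0386), and in that fit 2.73% of all genes passed. Over all alternatives the adjusted p of that difference ran from 0.0386 to 0.988.

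Elavl3 encodes HuC, a neuronal RNA-binding protein that appears as progenitors become neurons (chromosome 9, 22015005 to 22052023, minus strand). Elavl3 had 48.9, 43.8 and 0.669 CPM in the DREADD Pilo libraries, 47.3, 18.0, 19.5 and 13.3 CPM in the CAG-GFP Pilo libraries, 35.2, 37.3, 70.1 and 51.3 CPM in the DREADD Sham libraries and 3.23, 2.86 and 2.62 CPM in the CAG-GFP Sham libraries. All CAG-GFP Pilo and all DREADD Sham libraries were above all CAG-GFP Sham libraries, which differed little among themselves, and DREADD Pilo 1 and 2 were at the level of DREADD Sham while DREADD Pilo 3 was the lowest library. Elavl3 averaged 24.5 ± 15.4 CPM in CAG-GFP Pilo and 48.5 ± 16.1 CPM in DREADD Sham (SD, n = 4 each), against 2.91 ± 0.309 CPM in CAG-GFP Sham (SD, n = 3). The log2 fold change was 3.07 ± 1.08 for CAG-GFP Pilo and 4.06 ± 1.14 for DREADD Sham, both against CAG-GFP Sham, with edgeR adjusted p of 0.285 and 0.148. Without DREADD Pilo 3 they were 3.02 ± 0.74 (adjusted p = 0.0892) and 4.02 ± 0.78 (adjusted p = 0.0222). The oligodendrocyte and neuroblast sums were higher in the same groups here too, and their part was not tested.

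Elavl4 encodes HuD, the relative of HuC that stabilises Gap43 mRNA (chromosome 4, 110203722 to 110351909, minus strand). Elavl4 had 46.4, 22.7 and 0.892 CPM in the DREADD Pilo libraries, 25.1, 31.2, 87.3 and 0.0561 CPM in the CAG-GFP Pilo libraries, 18.4, 34.4, 164 and 12.9 CPM in the DREADD Sham libraries and 18.7, 38.96 and 10.2 CPM in the CAG-GFP Sham libraries. The value of CAG-GFP Pilo 4 rests on 3 counts, and DREADD Sham 3 was the highest library. No pair of groups was separated. Its log2 fold change was 0.67 ± 1.46 for CAG-GFP Pilo and 1.35 ± 1.4984 for DREADD Sham, both against CAG-GFP Sham (edgeR adjusted p = 0.876 and 0.719).

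Between genes, levels were compared per kb of annotated exon. In DREADD Sham the order of the mean levels was Stmn1, Marcksl1 (173 ± 90.4 CPM per kb), Gap43 (97.3 ± 52.3), Tubb3 (88.7 ± 58.5), Tubb2b (50.4 ± 16.5), Stmn2 (27.1 ± 6.49), Dpysl3 (20.6 ± 9.87), Elavl4 (10.7 ± 13.3), Elavl3 (7.03 ± 2.34) and Dpysl5 (SD, n = 4). Neighbours in that order overlapped in their libraries, with the exceptions of Stmn1 over Marcksl1 and Elavl3 over Dpysl5. In CAG-GFP Sham, Stmn1 and Gap43 (57.5 ± 11.1 CPM per kb) were again high, while Marcksl1 (6.24 ± 5.17) came after Stmn2, Tubb2b and Tubb3, and Elavl3 was lowest at 0.422 ± 0.0448 CPM per kb (SD, n = 3). There the libraries of neighbours were separate for Stmn1 over Gap43, Gap43 over Stmn2 and Dpysl3 over Dpysl5.

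**Figure D1:**
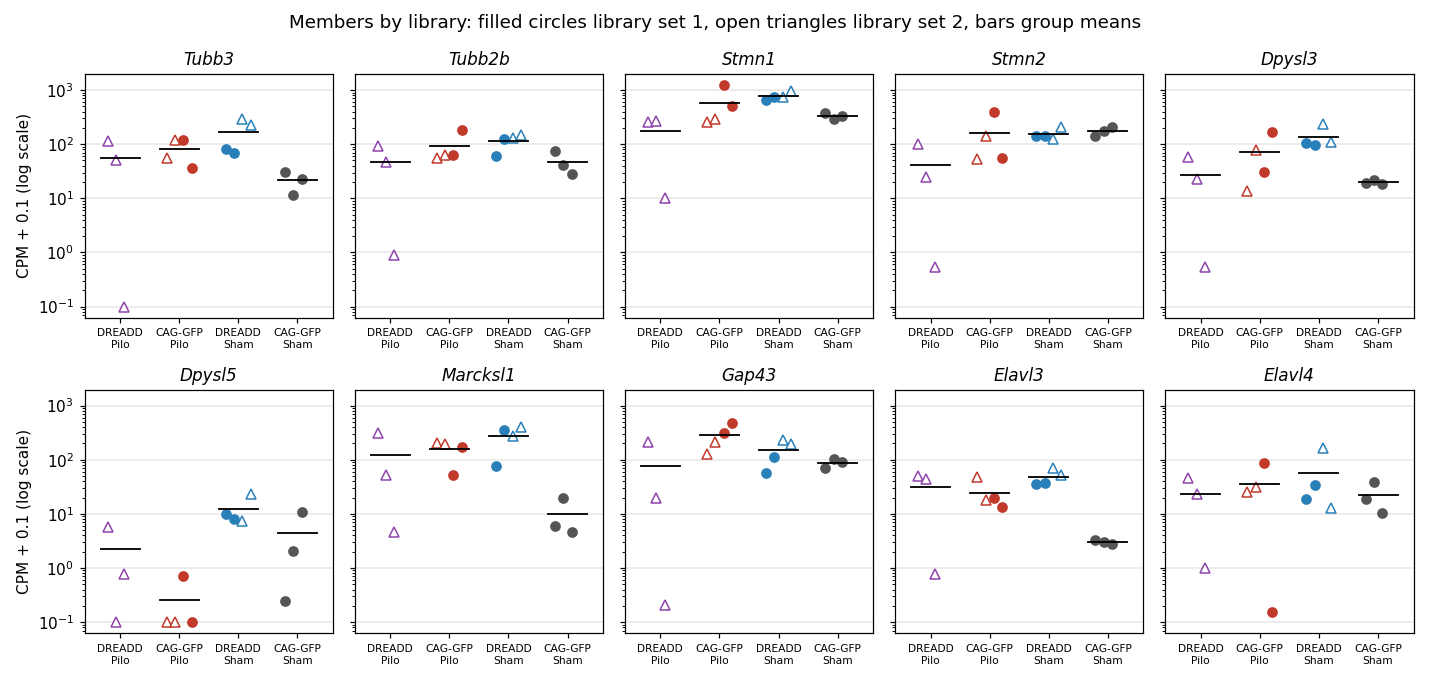
Level of each of the 10 genes in 14 libraries, as CPM + 0.1 on a log scale; points are libraries (filled circles set 1, open triangles set 2) and bars are group means. Marcksl1 and Elavl3 lie higher in every CAG-GFP Pilo and DREADD Sham library than in any CAG-GFP Sham library, and DREADD Pilo 3 is the lowest library for every gene but Dpysl5 and Elavl4.

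Seizures without silencing, CAG-GFP Pilo against CAG-GFP Sham, went with higher values of 8 of the 10 genes, but none of the differences passed the test. Marcksl1, Elavl3, Tubb3 and Dpysl3 had the largest positive fold changes, and Dpysl5 and Stmn2 had negative ones. The median log2 fold change of the 10 was 1.31, beside 0.41 over all 18676 genes tested, of which 58.6% were positive. At an adjusted p under 0.05, 0 of 10 passed edgeR's test and 0.241% of all genes did, and at an unadjusted p under 0.05 Marcksl1 and Elavl3 did, beside 15.4% of all genes. DESeq2 called Marcksl1 (adjusted p = 0.00170) and Elavl3 (adjusted p = 0.0119), and it called 11.9% of all genes. Over all alternatives to the edgeR fit the adjusted p ran from 0.00170 to 0.973 for Marcksl1 and from 0.0119 to 0.973 for Elavl3. In Tubb3, Marcksl1, Gap43 and Elavl3, 4 of the 10, all CAG-GFP Pilo libraries were above all CAG-GFP Sham libraries, which held for 6.55% of all genes. With library set as a covariate the log2 fold change of Marcksl1 was 3.52 and that of Elavl3 2.56, and within set 1 alone they were 3.47 and 2.46, without passing the test. Without DREADD Pilo 3, 0 of 10 passed, beside 0.759% of all genes.

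The DREADD with CNO but without seizures, DREADD Sham against CAG-GFP Sham, went with higher values of 9 of the 10 genes, and this comparison shares the CAG-GFP Sham libraries with the one before. The largest log2 fold changes were those of Marcksl1 (4.79), Elavl3 (4.06), Tubb3 (2.94) and Dpysl3 (2.79), and the median of the 10 was 1.43, beside 0.53 over all genes, 61.1% of which were positive. No member passed edgeR's adjusted test, where 0.3% of all genes passed. At an unadjusted p under 0.05 those 4 were higher, beside 12% of all genes, and DESeq2 called Dpysl3 (adjusted p = 0.04525), Marcksl1 (adjusted p = 5.102e-05) and Elavl3 (adjusted p = 0.0001845), beside 14.2% of all genes. Over all alternatives the adjusted p ran from 5.102e-05 to 0.954 for Marcksl1, from 0.000185 to 0.954 for Elavl3 and from 0.0182 to 0.954 for Dpysl3. In 5 of the 10, Tubb3, Stmn1, Dpysl3, Marcksl1 and Elavl3, the groups did not overlap, with DREADD Sham higher, as in 9.01% of all genes. All CAG-GFP Sham libraries were in library set 1, but DREADD Sham 3 and 4 were not, so the groups also differed in library set. With library set as a covariate 0 of 10 passed edgeR's adjusted test (smallest adjusted p = 0.121). Within set 1 alone 0 of 10 passed too (smallest adjusted p = 0.0506), beside 3.07% of all genes. The edgeR calls depended on 1 library of neither group: without DREADD Pilo 3, Marcksl1 and Elavl3 passed, beside 1.31% of all genes. The fit of only the 7 libraries of DREADD Sham and CAG-GFP Sham was an alternative chosen after seeing the data. In it Tubb3, Dpysl3, Marcksl1 and Elavl3 passed (smallest adjusted p = 0.0130), beside 4.26% of all genes. When the CAG-GFP Sham libraries were added up and fitted as 1 sample, 0 of 10 passed.

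**Figure D2:**
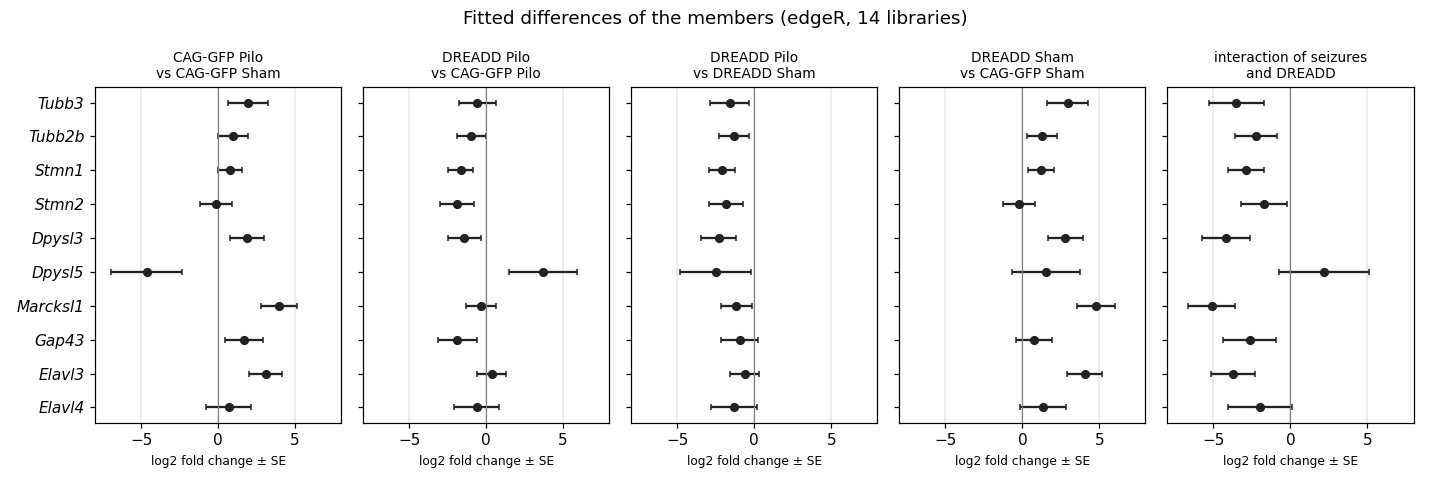
Log2 fold change of each gene in 5 comparisons from 1 fit of all 14 libraries; points are edgeR estimates and bars are 1 SE to each side. The points of DREADD Sham against CAG-GFP Sham lie right of 0 for 9 of the genes, those of DREADD Pilo against DREADD Sham lie left of 0 for all 10, and Dpysl5 has the widest bars.

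Silencing in mice with seizures, DREADD Pilo against CAG-GFP Pilo, went with no difference that passed. The log2 fold changes were negative for 8 of the 10 genes and ran from -1.92 ± 1.10 for Stmn2 to 3.68 ± 2.23 for Dpysl5, and their median was -0.79, beside 0.28 over all genes, 41.6% of which were negative. In edgeR 0 of the 10 and 0% of all genes passed at an adjusted p under 0.05, 0 of the 10 and 5.36% of all genes had an unadjusted p under 0.05, and DESeq2 called 0 of the 10 and 0.916% of all genes. Groups overlapped in all 10 genes, while in 5.69% of all genes every DREADD Pilo library was higher and in 3.15% every one was lower. Much of this rests on single libraries. Without DREADD Pilo 3, Tubb3 had a log2 fold change of -0.02 ± 0.76 in place of -0.58 ± 1.22, Marcksl1 0.22 ± 0.85 in place of -0.34 ± 0.9998, and Stmn1 -1.15 ± 0.62 in place of -1.67 ± 0.83. Without DREADD Pilo 1, Marcksl1, Elavl3 and Elavl4 had lower log2 fold changes than in the full fit, as given in the last section. At these SEs a difference of several fold in either direction could not have been told from none.

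Seizures in mice with the silenced cells, DREADD Pilo against DREADD Sham, went with lower values of all 10 genes, none past the test. The median log2 fold change was -1.45, beside 0.07 over all genes, 47.5% of which were negative. By edgeR's adjusted test 0 of the 10 and 0% of all genes passed, Stmn1 was lower at an unadjusted p under 0.05, beside 1.83% of all genes, and DESeq2 called 0 of the 10 and 0.846% of all genes. All DREADD Pilo libraries were below all DREADD Sham libraries in Stmn1, Stmn2, Dpysl3 and Dpysl5, 4 of the 10, as in 2.23% of all genes. Leaving out DREADD Pilo 3 cannot undo such a separation, so it is no check of these 4, and from the values above no further member was separated then. Without that library the log2 fold changes stayed negative for all 10 genes, from -2.11 for Dpysl5 to -0.09 for Elavl3. The difference between the seizure effects with and without the receptor, tested as an interaction, was negative for 9 of the 10 genes, with the exception of Dpysl5 (2.16 ± 2.93), and for 57.2% of all genes. It was -5.13 ± 1.54 for Marcksl1 (edgeR adjusted p = 0.342) and -4.21 ± 1.56 for Dpysl3 (adjusted p = 0.412). No gene of the 10 and 0% of all genes passed, 4 of the 10 were negative at an unadjusted p under 0.05, beside 7.4% of all genes, and DESeq2 called Marcksl1 (adjusted p = 0.00730, with 0.00730 to 0.9999 over all alternatives), beside 7.8% of all genes. The interaction and the comparisons it is made of share all their libraries.

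Markers of other cells moved with these groups. Summed over 8 markers of oligodendrocyte precursors, the level was 1714, 1066 and 47.9 CPM in DREADD Pilo, 784, 754, 139 and 1122 CPM in CAG-GFP Pilo, 427, 656, 990.4 and 951 CPM in DREADD Sham and 29.2, 25.2 and 45.6 CPM in CAG-GFP Sham, where Cspg4 and Neu4 were at 0 in all 3 libraries. In both comparisons with CAG-GFP Sham 3 of these 8 markers, Neu4, Pdgfra and Cspg4, rose past edgeR's adjusted test, and all 10 oligodendrocyte markers had positive fold changes without passing it. Of 10 astrocyte markers, Acsbg1 fell past that test in CAG-GFP Pilo, and Acsbg1 and Slc4a4 fell past it in DREADD Sham, both against CAG-GFP Sham. Summed over 6 neuroblast markers, the level was 172, 149 and 4.35 CPM in DREADD Pilo, 235, 384, 93.5 and 110.4 CPM in CAG-GFP Pilo, 158, 205, 948 and 703 CPM in DREADD Sham and 27.3, 14.02 and 35.0 CPM in CAG-GFP Sham, so DREADD Sham 3 and 4, the libraries highest in Tubb3, were also the highest in these. Igfbpl1 and Eomes were at 0 in all 3 CAG-GFP Sham libraries. Summed over 10 markers of mature granule cells, the level was 770.1, 391 and 129 CPM in DREADD Pilo, 1770.0, 1778, 5584 and 1883 CPM in CAG-GFP Pilo, 1552, 2195, 519 and 635 CPM in DREADD Sham and 754, 992 and 719 CPM in CAG-GFP Sham, and CAG-GFP Pilo 3, the library highest in Stmn1 and Stmn2, was the highest. Further lists had no gene past the adjusted test in any comparison. Summed over 8 microglia markers, the level was 28027, 12102 and 171 CPM in DREADD Pilo, 9907, 8494, 4132 and 6892 CPM in CAG-GFP Pilo, 5003, 556, 4812 and 11128 CPM in DREADD Sham and 3006, 2862 and 2707 CPM in CAG-GFP Sham, and all 8 had positive fold changes in DREADD Pilo against DREADD Sham and in CAG-GFP Pilo against CAG-GFP Sham. All 7 endothelial markers (median log2 fold change 7.87), all 6 pericyte and smooth muscle markers (6.99) and all 6 markers of proliferating cells (10.62) were positive in DREADD Sham against CAG-GFP Sham, where many of these counts are 0 in CAG-GFP Sham and the fitted folds depend on the prior count. The endothelial sum was 27.2, 12.04, 642 and 484 CPM in DREADD Sham and 2.49, 3.90 and 6.34 CPM in CAG-GFP Sham. The pericyte and smooth muscle sum was 322, 10.8, 824 and 1306 CPM in DREADD Sham and 18.6, 20.4 and 21.2 CPM in CAG-GFP Sham. The sum for proliferating cells was 5.48, 9.87, 43.7 and 322 CPM in DREADD Sham and 5.37, 9.09 and 12.8 CPM in CAG-GFP Sham, so DREADD Sham 3 and 4 were the highest libraries of both groups in all 3 of these sums, and the groups overlapped in the pericyte and the proliferating cell sums. Of 7 interneuron markers 6 and of 9 CA pyramidal markers 4 were positive in CAG-GFP Pilo against CAG-GFP Sham. The part of these cells in the results was not tested.

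**Figure D3:**
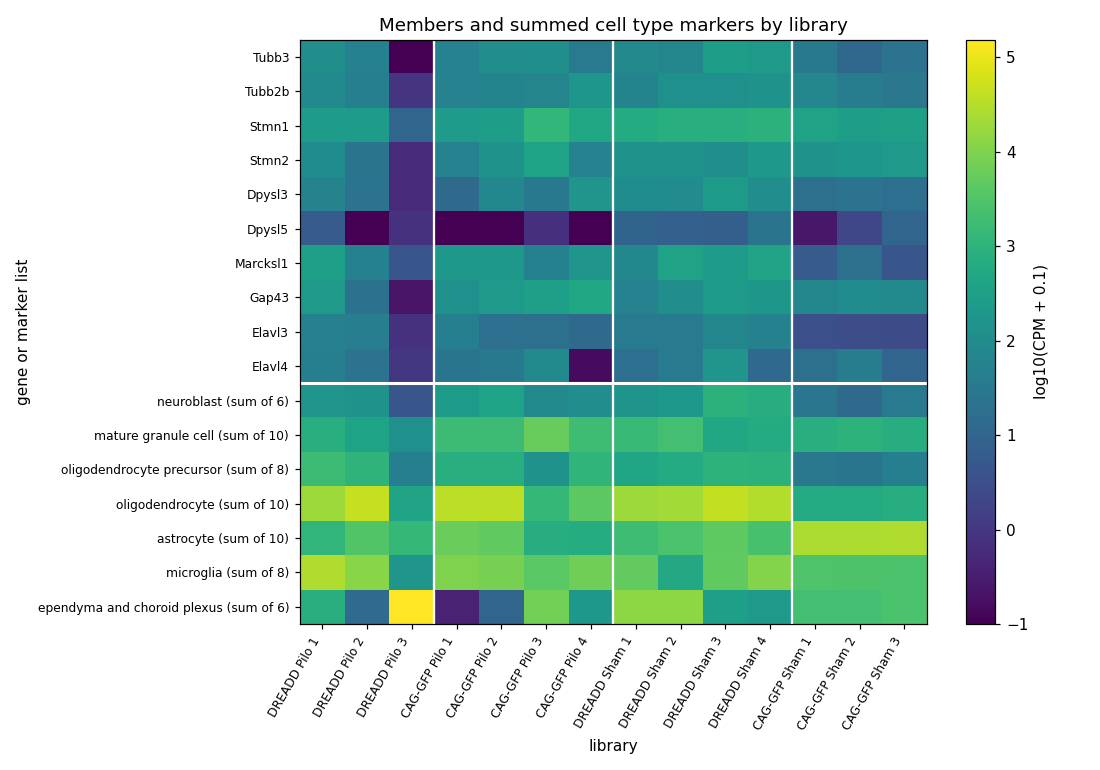
Level of the 10 genes and of summed markers of 7 cell types in 14 libraries, as log10(CPM + 0.1), with white lines between groups. DREADD Pilo 3 is low in the 10 genes and high in ependyma and choroid plexus markers, and the 3 CAG-GFP Sham libraries are high in astrocyte markers and low in oligodendrocyte and neuroblast markers.

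Related genes were read from 4 lists of 75 genes in all, and none of their members passed the adjusted test in any of the 5 comparisons. Of 17 further members of the same families, 14 had positive fold changes in CAG-GFP Pilo against CAG-GFP Sham (82.4%, beside 58.6% of all genes), with a median log2 fold change of 0.94. In DREADD Sham against CAG-GFP Sham 11 had them (64.7%, near the 61.1% of all genes), with a median of 0.97. Dpysl4, a further collapsin response mediator protein, had 3.99 ± 1.21 (edgeR adjusted p = 0.246) and Tubb4a, a tubulin also abundant in myelinating cells, had 3.56 ± 1.23 (adjusted p = 0.285) in CAG-GFP Pilo against CAG-GFP Sham. Of 23 neuronal microtubule and growth cone genes, 16 were positive in that comparison (69.6%, beside 58.6% of all genes), with a median of 1.02. Summed over these 23 genes, the level went the other way. It was 6699 to 7578 CPM in CAG-GFP Sham and 3372 to 6427 CPM in CAG-GFP Pilo. In DREADD Sham it was 3626 to 4858 CPM and in DREADD Pilo 2898 to 3153 CPM. In CAG-GFP Pilo against CAG-GFP Sham, Map1b, a microtubule-associated protein of growing axons, had 3.01 ± 0.68 (edgeR adjusted p = 0.0946). Dbn1, the actin-binding drebrin, had 2.03 ± 0.63 there (adjusted p = 0.255). In DREADD Pilo against DREADD Sham 21 of those 23 were negative, beside 47.5% of all genes. The 17 family members did not lean that way: 9 were negative and 8 positive there, with a median log2 fold change of -0.185, beside 0.067 over all genes.

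Of the 19 neuronal RNA-binding genes tested, 11 were positive in CAG-GFP Pilo against CAG-GFP Sham (57.9%, near the 58.6% of all genes). Their median log2 fold change there was 0.46, beside 0.41 over all genes. Their median was 1.07, beside 0.53 over all genes, in DREADD Sham against CAG-GFP Sham. It was -1.31, beside 0.28, in DREADD Pilo against CAG-GFP Pilo and -1.21, beside 0.07, in DREADD Pilo against DREADD Sham. In each, 14 of 19 were negative, beside 41.6% and 47.5% of all genes. In the interaction the median was -2.37, beside -0.43 over all genes. In CAG-GFP Pilo against CAG-GFP Sham, Khdrbs2, a splicing regulator, had 5.57 ± 1.86 (edgeR adjusted p = 0.283) and Rbfox1, a splicing regulator of neurons, 2.85 ± 1.19 (adjusted p = 0.299). Of 14 other immature neuron markers tested, 13 were positive in CAG-GFP Pilo against CAG-GFP Sham (median 1.64), 12 in DREADD Sham against CAG-GFP Sham (median 2.44) and 1 in DREADD Pilo against DREADD Sham (median -1.94), beside the medians and shares of all genes given above. Neurod1, a transcription factor that drives granule neuron differentiation, had 6.67 ± 1.78 (adjusted p = 0.174) and St8sia4, an enzyme that adds polysialic acid to NCAM, had 10.63 ± 2.88 (adjusted p = 0.200) in CAG-GFP Pilo against CAG-GFP Sham.

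Over the 14 libraries Tubb3, Tubb2b, Stmn1, Stmn2, Dpysl3 and Gap43, grouped after their values were seen, had Pearson correlations of log2 CPM from 0.74 to 0.93 with each other. Without DREADD Pilo 3, where all 6 were lowest, these ran from -0.074 (Tubb2b with Stmn2) to 0.79 (Tubb2b with Dpysl3). Marcksl1 and Elavl3 had 0.89 with each other, and 0.86 without that library. Dpysl5 had at most 0.31 with any other member over the 14 libraries, but without DREADD Pilo 3 it had 0.56 with Stmn2 and 0.46 with Stmn1. Among all genes tested, the one most like Tubb3 was Tmem179 (0.95), that most like Tubb2b was Prelid3a (0.96) and that most like Stmn1 was Soga3 (0.95). The gene most like Stmn2 was Tubb2a (0.98) and that most like Dpysl3 was Tmem179 (0.93). Dpysl5 was most like Mov10 (0.84), the lowest of these values. Marcksl1 was most like Tuba1a (0.95), and Gap43 was most like Ina (0.97). Elavl3 was most like Tubb4a (0.97), followed by Tmcc2 (0.96) and Ugt8a (0.96), and Elavl4 was most like Zcwpw1 (0.93). Leaving out, for each member, the 2 libraries farthest from its median, DREADD Pilo 3 among them for every member but Dpysl5, the correlation was 0.96 for Marcksl1 and Tuba1a and 0.95 for Elavl3 and Tubb4a, but 0.62 for Tubb3 and Tmem179 and 0.66 for Elavl4 and Zcwpw1. Tuba1a had 4542, 1299.9 and 195 CPM in DREADD Pilo, 3067, 3239, 1717 and 2568 CPM in CAG-GFP Pilo, 1685, 2799, 3379.7 and 3455 CPM in DREADD Sham and 608, 726 and 619 CPM in CAG-GFP Sham. Tubb4a had 3217, 2449.8 and 5.02 CPM in DREADD Pilo, 1453, 1274, 476 and 558 CPM in CAG-GFP Pilo, 726, 1666, 2722 and 2404 CPM in DREADD Sham and 67.5, 97.6 and 74.6 CPM in CAG-GFP Sham. Both had every CAG-GFP Pilo and DREADD Sham library above every CAG-GFP Sham library, as Marcksl1 and Elavl3 did. Both were named for their likeness to Marcksl1 and Elavl3 over the same libraries, so the shared separation is no further evidence. These correlations share the libraries and their depth and carry no test.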

How the data were processed

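The authors deposited raw counts per gene, without normalisation, for 14 libraries in 4 groups, and the libraries were grouped by their titles. The submitters' processing notes name edgeR, R 4.1.1, Subread, featureCounts and Bowtie2, and as build hg38, while every identifier is a mouse Ensembl identifier. The sources used here do not give the annotation release, the strand setting or how reads with several matches were treated. Symbols came from GENCODE M21 (GRCm38), which matched 42462 of 43346 identifiers (98%). The test was edgeR 4.0.16's quasi-likelihood F-test (R 4.3.3, TMM factors, filterByExpr) in a single fit of the 14 libraries, with p-values adjusted by Benjamini-Hochberg over the 18676 genes left (threshold 0.05). The biological coefficient of variation was 1.47, which limits the precision more than depth does. Limits from 3 counts cover counting error only, as reads lacking molecular identifiers are no independent molecules. Levels are CPM by library total and TMM factor. DESeq2 1.42.0, RLE size factors, no filter, library set as a covariate or 1 set alone, a replicate block, summed CAG-GFP Sham libraries and each library left out were alternatives. The 10 genes and all lists were chosen with earlier results of these data known. Named are all 10 genes, list genes past the test or else the 2 per list with the smallest p in CAG-GFP Pilo against CAG-GFP Sham, and per gene the 3 others with the highest Pearson correlation of log2 CPM (prior count 2), of which mostly the first is given. Sequences came from GENCODE M21 transcripts and RefSeq (GRCm38.p6), where 5 of the 10 genes had a promoter window. Within groups, every pair of libraries differed by more than sampling noise, which does not show that they came from separate animals. The CAG-GFP Sham libraries were the most alike, with correlations of log2 CPM of 0.8629 to 0.8679, beside 0.5005 to 0.7955 within the other groups.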

Additional observations from a re-analysis of the deposited data

Results flagged for a closer look

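Single libraries far from the rest of their group were looked for in each gene in the 2 groups with 4 libraries. Of these 20 checks, 5 had a gap to the nearest library, as a share of the group's range, above the 95% critical value of Dixon's test, where chance gives about 5% if values are normally distributed. The checks used CPM and not their logarithms, and normality was not tested, so the share by chance may be higher here. Tubb2b had 183 CPM in CAG-GFP Pilo 4, and the next library had 63.9 CPM. Dpysl3 had 233.7 CPM in DREADD Sham 3, and the next library had 109 CPM. Dpysl5 had 0.617 CPM in CAG-GFP Pilo 3 and 0 in the other 3 libraries of that group, where any value above 0 would have stood apart in this way, so this case says nothing beside the share by chance. In DREADD Sham 4 Dpysl5 had 23.6 CPM, and the next library had 9.81 CPM. Elavl4 had 164 CPM in DREADD Sham 3, and the next library had 34.4 CPM.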

How the results depend on the processing

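The log2 fold changes of the 10 genes in 5 comparisons gave 50 results and 1129 alternative values, of which 1097 kept their direction and side of the threshold, 13 became significant and 19, in 10 of the results, changed sign. For CAG-GFP Pilo against CAG-GFP Sham, Stmn2 was 0.0184 with library set as a covariate, 0.25 in set 1 only, 0.57 by library totals, and 0.14, 0.14 and 0.0134 without CAG-GFP Pilo 1, CAG-GFP Pilo 4 and CAG-GFP Sham 3 (lowest -1.06, without CAG-GFP Pilo 3), and Elavl4 ran from -0.27 without CAG-GFP Pilo 3 to 1.32 without CAG-GFP Sham 2. For DREADD Pilo against CAG-GFP Pilo, Elavl3 was -0.0078 with the covariate, -0.0602 in set 2 only and -0.15 without DREADD Pilo 1 (highest 0.91, without DREADD Pilo 3), Marcksl1 was 0.0147 and 0.22 without DREADD Pilo 2 and DREADD Pilo 3 (lowest -2.45, without DREADD Pilo 1), and Elavl4 ran from -1.63 without DREADD Pilo 1 to 0.31 without CAG-GFP Pilo 3. Without DREADD Sham 3, Elavl4 was 0.0904 for DREADD Pilo against DREADD Sham (lowest -2.31, without DREADD Pilo 1) and -0.0424 for DREADD Sham against CAG-GFP Sham (highest 1.998, without CAG-GFP Sham 2). For DREADD Sham against CAG-GFP Sham, Stmn2 was 0.0553 with the covariate and 0.57 by library totals, and Gap43 was -0.0883 in set 1 only. The interaction of Dpysl5 ran from -0.51 without DREADD Pilo 1 to 7.07 without CAG-GFP Pilo 3. The causes were not tested.

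Counts of the 10 genes called moved in 6 cases: DESeq2 called 1 for the interaction, 3 for DREADD Sham against CAG-GFP Sham and 2 for CAG-GFP Pilo against CAG-GFP Sham, set 1 only called 1 (CAG-GFP Pilo against CAG-GFP Sham), and for DREADD Sham against CAG-GFP Sham 2 passed without DREADD Pilo 3 and 4 in the fit of those groups only, chosen after seeing the data; leaving out any other library gave 0. Counts of all genes called moved more. For CAG-GFP Pilo against CAG-GFP Sham the 45 genes became 2221 with DESeq2, 89 with the covariate, 471 in set 1 only, 0 with CAG-GFP Sham summed, 168 in a fit of those groups only, and 3 to 151 with 1 library left out, the most without DREADD Pilo 3. For DREADD Sham against CAG-GFP Sham the 56 became 2655, 146, 530, 0, 647 and 6 to 260, again the most without DREADD Pilo 3. DESeq2 called 171 genes for DREADD Pilo against CAG-GFP Pilo, 158 for DREADD Pilo against DREADD Sham and 1456 for the interaction, each 0 in edgeR. With the covariate DREADD Pilo against DREADD Sham had 2 and the interaction 11, and the interaction had 3 without the filter and 0 to 1 with 1 library left out. Replicate numbers gave no sign of pairing (19 same-number pairs, correlation of deviations -0.381 to 0.115, 1 above 0.1). The same-number pairs of CAG-GFP Pilo and DREADD Sham all cross the library sets, so for these groups the check cannot tell. Between those 2 groups the deviations went with library set, with correlations of 0.163 to 0.433 within a set and -0.381 to -0.143 across sets. The replicate block left 1 gene for CAG-GFP Pilo against CAG-GFP Sham and 0 for DREADD Sham against CAG-GFP Sham, and 0 of the 10 genes in every comparison. Library totals without TMM, chosen after seeing the data, gave a median log2 fold change of all genes of 1.09 in place of 0.41 for CAG-GFP Pilo against CAG-GFP Sham and of 1.30 in place of 0.53 for DREADD Sham against CAG-GFP Sham, and the calls there were 17 higher and 15 lower, and 5 higher and 8 lower, in place of 13 and 32, and 10 and 46. Relative to that median, 8 and 9 of the 10 genes were above it under both scalings. Of 180 alternative group means, 6 moved by more than 1 SD, all under library totals. The spread between libraries limits all 10 genes, and at the level of Dpysl5 several values also rest on 3 or fewer counts.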
